A study of Rattus norvegicus with 12 samples.

Results

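Pdgfra, Egfr, Erbb3 and Igf1r encode 4 receptor tyrosine kinases with known roles in the proliferation and survival of oligodendrocyte precursor cells (OPCs). They were chosen by name, with earlier results of these data known and among genes that the study lists as changed by cytokines, and each was found in the count tables through the mean count and fold change that the study lists for its symbol. They are 4 of 13348 genes tested. RNA was sequenced from primary OPCs of wild-type Sprague-Dawley rat pups (P0 to P2, males and females pooled), shaken off mixed cultures of the cortex, in 12 libraries. The 4 groups of 3 were named CTL (untreated), GAL, CTK-2 and CTK2+GAL. Treatment began when all cells were moved to differentiating medium, which lacked growth factors and contained the thyroid hormone T3. CTK-2 cells received a mixture of IFN-γ, TNF-α and IL-1β, with 2 ng/mL of each. GAL cells received 10 nM galinex, an agonist of the receptor GPR17, CTK2+GAL cells received galinex 6 h after the cytokines, and cells without galinex received DMSO in its place. RNA was taken 24 h after galinex. The labels do not say that the 3 libraries of a group came from separate cultures or animals, so p-values measure only the spread between these libraries, which may be technical.

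Typically, though not in every member, a receptor tyrosine kinase binds its ligand outside the cell, pairs with another receptor and phosphorylates it. The signal runs on through RAS and ERK and through PI3K and AKT. PDGFRα is the receptor for platelet-derived growth factor that defines OPCs and drives their division, and it is lost as the cells mature. EGFR binds EGF, TGFα and HB-EGF and is known from early glial progenitors, ErbB3 binds neuregulins and signals through a partner such as ErbB2, and the IGF-1 receptor supports survival and growth of the oligodendrocyte lineage.

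The study compared cytokines with untreated cells and asked whether galinex alters the cytokine response. The libraries held between 2600797 and 8978185 counts (median 5519440). GAL replicate 1 was the shallowest. Of 11 OPC markers, 7 had a symbol here, and their summed level was between 4460 and 4880 CPM (counts relative to a library size scaled by TMM) in the 6 libraries without cytokines and between 5480 and 5820 with them. This sum includes Pdgfra, and its most abundant members, Ptprz1 and Vcan, went opposite ways. Mean Ptprz1 was 1859 CPM in GAL and 2880 in CTK2+GAL, and mean Vcan was 1763 and 942.9. Genes of maturing oligodendrocytes were present as well, at 2700 to 3100 CPM without and 1110 to 1280 CPM with cytokines over the 7 of 13 markers with a symbol. CTL replicate 3 and GAL replicate 3 stood apart: on the first principal component of all tested genes, which held 76.5% of the variance, they scored -23.8 and -28.2, while the other libraries without cytokines scored between -62.9 and -58.6 and those with cytokines between 48 and 49.8. The cytokine fold changes of the receptors, and their levels per length and shares in CTL and GAL, are therefore also given without these libraries.

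Symbols were available only for genes that the study lists as changed between CTK-2 and CTL in these libraries. The differences between those groups are therefore a description. The same cytokines were also compared between CTK2+GAL and GAL, which share no library with CTK-2 and CTL, and that comparison is the test reported here. It is not independent of the choice of genes, which was made with earlier results of these data known. The mean count used to find each gene and the estimate of spread also drew on all 12 libraries. A gene was called where its adjusted p did not exceed 0.05 and its log2 fold change was 0.59 or more in size.

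On the rat build mRatBN7.2, Pdgfra (ENSRNOG00000002244) lies on chr14:33005839-33054335 on the minus strand and Egfr (ENSRNOG00000004332) on chr14:91177067-91344382 on the plus strand. Erbb3 (ENSRNOG00000004964) lies on chr7:996225-1015525 on the minus strand, and Igf1r (ENSRNOG00000014187) on chr1:121550743-121831777 on the plus strand. The exons counted for Pdgfra added up to 6648 bases, those for Egfr to 4519, those for Erbb3 to 4311 and those for Igf1r to 4682. No other annotated gene overlapped any of the 4 on either strand, so their counts are not shared with a neighbour. Next to Pdgfra in the RefSeq annotation of GRCr8 lies Kit, which encodes a related receptor and has no symbol in these data.

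RefSeq gives promoters on GRCr8 for 3 of the 4 genes, Pdgfra, Egfr and Igf1r. The bases before the transcription start of the 2 receptor genes on chromosome 14 are shown because both genes rose with cytokines, by very different amounts. The window for Pdgfra is chr14:33408605-33408766 on the minus strand (162 bases, up to the outermost annotated start of the gene) and that for Egfr is chr14:95378376-95378625 on the plus strand (250 bases). Capitals mark the only motif match in them, a GC box of Sp1 on the reverse strand.
Pdgfra: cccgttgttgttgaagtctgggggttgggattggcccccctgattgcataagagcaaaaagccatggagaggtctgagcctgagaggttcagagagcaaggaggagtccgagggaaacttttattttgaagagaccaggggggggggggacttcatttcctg
Egfr: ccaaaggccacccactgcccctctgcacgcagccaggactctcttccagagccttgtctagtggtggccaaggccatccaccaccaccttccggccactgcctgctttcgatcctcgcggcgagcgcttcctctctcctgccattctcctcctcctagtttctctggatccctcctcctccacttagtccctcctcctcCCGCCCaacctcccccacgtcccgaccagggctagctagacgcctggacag

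The 250 bases before each start were searched on both strands for GAAANNGAA (the first letters of the element of interferon regulatory factors), GGGANTTNC (the first letters of a κB site), GGGCGG (the GC box of Sp1) and TATAAA (the TATA box). Among 33469 rat promoters, 8.12% held the first, 3.57% the second, 30.5% the GC box and 12.9% the TATA box. The window of Pdgfra held 0 matches to these letters. Those of Egfr and Igf1r held 1 GC box each, 51 and 184 bases before the start, and no match to the other 3 patterns. The share of G and C was 47.2% for Pdgfra, 63.6% for Egfr and 79.6% for Igf1r, against a median of 51.2% over all promoters. None of the 3 windows held the letters for interferon regulatory factors or κB, and these matches describe letters only.

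Cytokines raised Pdgfra, Egfr and Igf1r and lowered Erbb3 in the presence of galinex, which is 4 of 4 receptors called in CTK2+GAL versus GAL, against 17.4% of all tested genes (11.7% higher and 5.74% lower) and 85.5% of the 1771 genes with a symbol. The groups did not overlap for any of the 4, as for 49.5% of all tested genes. In CTK-2 versus CTL, the comparison through which the symbols were obtained, 4 of 4 were called in the same directions, beside 17.3% of all tested genes (11.5% higher, 5.79% lower) and 49.1% without overlap. Against the share among genes with a symbol, 4 of 4 is close to the background. In bulk RNA a lower level can come from fewer cells of a type or from less RNA per cell, and the counts cannot tell these apart.

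**Figure D1:**
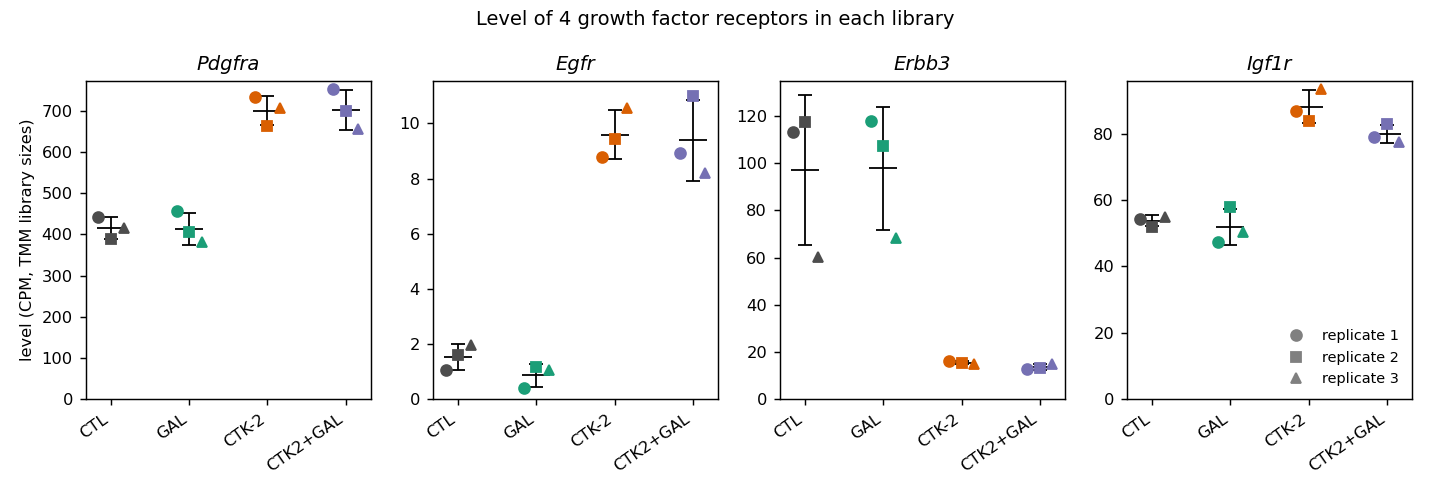
Level of each receptor in CPM (y axis, starting at 0) in the 12 libraries by group (x axis); symbols mark the replicate number, and black bars give the mean ± SD of 3 libraries. Pdgfra, Egfr and Igf1r are higher and Erbb3 is lower in all 6 libraries with cytokines, and the triangles of CTL and GAL mark the low Erbb3 levels of replicate 3.

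Pdgfra had the highest level of the 4. It was measured at 442.2, 387.7 and 416.1 CPM in CTL and at 456.2, 404.8 and 380.5 CPM in GAL, replicates 1 to 3. In CTK-2 it was measured at 734.5, 663.1 and 706.4 CPM and in CTK2+GAL at 754.1, 699.1 and 655.4 CPM. Every library with cytokines lay above every library without, while CTL and GAL overlapped, as did CTK-2 and CTK2+GAL. The mean was 415 ± 27.2 CPM in CTL, 414 ± 38.7 in GAL, 701 ± 36 in CTK-2 and 703 ± 49.5 in CTK2+GAL (SD, n = 3 each). Pdgfra rose by a log2 fold change of 0.77 (SE 0.075, edgeR quasi-likelihood test with Benjamini-Hochberg adjustment, adjusted p = 1.61e-07) in CTK2+GAL versus GAL, and its log2 fold change was 0.76 (SE 0.075) in CTK-2 versus CTL. Without the third libraries of CTL and GAL these values were 0.71 and 0.76.

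Egfr was scarce without cytokines. It had 6, 8 and 12 counts in CTL (1.03, 1.59 and 1.95 CPM) and 1, 7 and 6 counts in GAL (0.388, 1.17 and 1.03 CPM). In CTK-2 it had 42, 52 and 57 counts (8.78, 9.45 and 10.6 CPM) and in CTK2+GAL 46, 62 and 74 counts (8.94, 11.01 and 8.20 CPM). The lowest level with cytokines was above the highest without, and the single read pair of GAL replicate 1 came from the shallowest library. Egfr rose by a log2 fold change of 3.23 (SE 0.30, adjusted p = 9.00e-08, edgeR) in CTK2+GAL versus GAL, the largest rise of the 4, and without GAL replicate 1 by 3.05. In CTK-2 versus CTL the log2 fold change was 2.64 (SE 0.26). Without the third libraries of CTL and GAL the fold changes were 3.28 and 2.88 on the log2 scale. Even so, at 9.60 ± 0.90 CPM in CTK-2 and 9.38 ± 1.46 in CTK2+GAL (SD, n = 3) it stayed the least abundant of the 4 receptors.

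Erbb3 went the opposite way. It was measured at 113.4, 117.6 and 60.3 CPM in CTL and at 117.9, 107.3 and 68.4 CPM in GAL. In CTK-2 it was measured at 16.1, 15.3 and 14.6 CPM and in CTK2+GAL at 12.6, 13.1 and 14.8 CPM. All libraries with cytokines lay below all libraries without, and replicate 3 was the lowest of CTL and of GAL. Erbb3 fell by 2.80 on the log2 scale (SE 0.25, adjusted p = 4.27e-08, edgeR) in CTK2+GAL versus GAL, and CTK-2 differed from CTL by -2.65 (SE 0.25). With CTL replicate 3 and GAL replicate 3 both left out, the log2 fold changes were -3.02 (SE 0.10) and -2.91 (SE 0.10). The fall was therefore larger, and its error smaller, without the libraries that stood apart.

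Igf1r was measured at 54.4, 51.9 and 55.0 CPM in CTL and at 47.3, 57.9 and 50.4 CPM in GAL. In CTK-2 it was measured at 87.0, 83.8 and 93.6 CPM and in CTK2+GAL at 78.9, 82.9 and 77.7 CPM. Every library with cytokines was above every library without. Igf1r rose by a log2 fold change of 0.60 (SE 0.075, adjusted p = 3.97e-06, edgeR) in CTK2+GAL versus GAL, just past the threshold of 0.59, and CTK-2 differed from CTL by 0.71 (SE 0.073). Without GAL replicate 1, without GAL replicate 3 and without the third libraries of CTL and GAL the log2 fold change was 0.56, and without CTK2+GAL replicate 2 it was 0.57, so the call was lost on size in each case while the adjusted p stayed at 5.05e-05 or less. In CTK-2 versus CTL it was 0.73 without the third libraries of CTL and GAL.

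CTL replicate 3 and GAL replicate 3 were displaced further for Erbb3 than for the other receptors. Their log2 level of Erbb3 was below the mean of replicates 1 and 2 by a difference of -0.94 in CTL and -0.72 in GAL, where replicates 1 and 2 differed from each other by 0.05 and 0.14. For Pdgfra the same differences were 0.01 and -0.18, and for Igf1r 0.05 and -0.06. For Egfr they were 0.60 and 0.61, which is no more than the 0.62 and 1.60 between replicates 1 and 2. Igf1r in both of these libraries thus lay among the other libraries without cytokines, as did Pdgfra in CTL replicate 3. In GAL replicate 3 Pdgfra was slightly below them, at 380.5 CPM against 387.7 to 456.2. Erbb3 lay between the other libraries without cytokines and the libraries with cytokines. Summed over the 8 of 15 microglial markers with a symbol, the level was 16.4 CPM in CTL replicate 3 and 15.3 in GAL replicate 3, against 2.58 to 5.37 in the other libraries without cytokines and 37.7 to 50.4 with cytokines. Their part in the Erbb3 result was not tested.

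**Figure D2:**
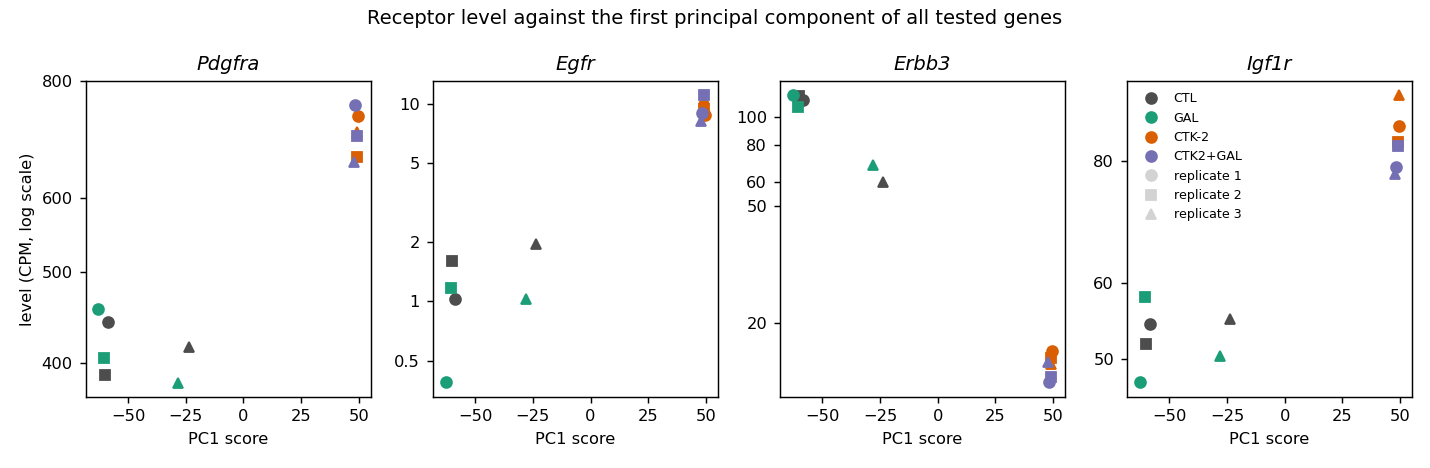
Level of each receptor (CPM, log scale) against the score of the library on the first principal component of all tested genes (no unit); colours mark the group and symbols the replicate. CTL replicate 3 and GAL replicate 3 (triangles at -23.8 and -28.2) have intermediate Erbb3 levels, while their Pdgfra and Igf1r levels lie among or close to those of the libraries at the left.

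Between genes, levels were compared per kilobase of counted exons. In CTL the order was Pdgfra at 62.5 ± 4.10 CPM per kb, Erbb3 at 22.5 ± 7.41, Igf1r at 11.5 ± 0.35 and Egfr at 0.337 ± 0.102 (SD, n = 3), and in GAL it was the same. In CTK-2 the order was Pdgfra at 106 ± 5.42, Igf1r at 18.8 ± 1.06, Erbb3 at 3.56 ± 0.171 and Egfr at 2.12 ± 0.199, and in CTK2+GAL it was again the same. Erbb3 and Igf1r thus changed places with cytokines. The range of Erbb3 in CTL, with 13.99 CPM per kb in replicate 3, stayed above the highest Igf1r level of 11.74, and no neighbours in these orders overlapped within any of the 4 groups. Over replicates 1 and 2 alone, Erbb3 averaged 26.8 CPM per kb in CTL and 26.1 in GAL, and the order was the same.

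The summed level of the 4 receptors was 96.8 ± 7.96 CPM per kb in CTL, 96.2 ± 11.2 in GAL, 130 ± 5.99 in CTK-2 and 128 ± 7.39 in CTK2+GAL. Pdgfra made up 64.7% ± 5.31 of it in CTL and 64.9% ± 3.11 in GAL, and 81.1% ± 0.765 in CTK-2 and 82.6% ± 1.16 in CTK2+GAL. Erbb3 made up 23.0% ± 6.45 in CTL and 23.3% ± 3.85 in GAL, and 2.74% ± 0.153 and 2.47% ± 0.355 with cytokines. Over replicates 1 and 2 alone, Pdgfra made up 61.8% in CTL and 63.25% in GAL, and Erbb3 26.6% and 25.5%. The ranges over all libraries did not overlap between libraries with and without cytokines.

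**Figure D3:**
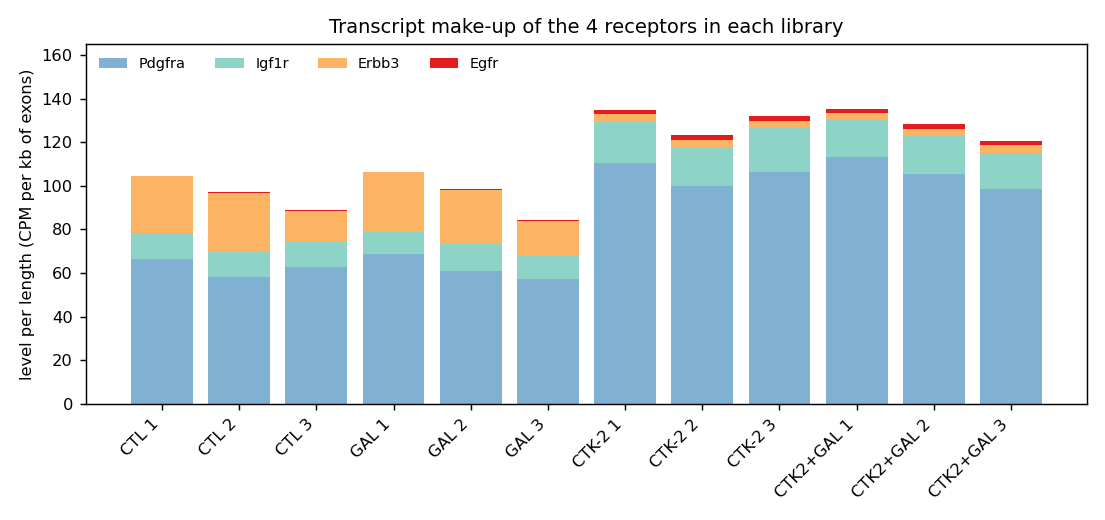
Stacked bars of the level per length (CPM per kb of exons) of Pdgfra, Igf1r, Erbb3 and Egfr in each library. The Pdgfra segment is larger and the Erbb3 segment smaller in the 6 libraries with cytokines, and Egfr is a thin segment there and barely visible without cytokines.

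Egfr and Erbb3 belong to the same family of receptors. Egfr made up 1.71% ± 1.13 of the summed Egfr and Erbb3 level per length in CTL (SD, n = 3) and 0.921% ± 0.561 in GAL, or 1.07% and 0.672% over replicates 1 and 2 alone. With cytokines it made up 37.4% ± 3.28 in CTK-2 and 39.7% ± 4.98 in CTK2+GAL. The highest share without cytokines was 2.99% and the lowest with them 34.2%, so the libraries were far apart. For CTK2+GAL against GAL the difference was 38.8 percentage points (exact two-sided permutation test over 20 regroupings, p = 0.1, the smallest that 3 against 3 libraries can give).

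Galinex on top of cytokines moved none of the 4 past the threshold. In CTK2+GAL versus CTK-2, 0 of 4 receptors and 0.00% of all tested genes were called by edgeR, and DESeq2 also called 0 genes, with 4.08% of genes at an unadjusted p of at most 0.05 by edgeR and none of the receptors among them. The log2 difference was 0.00 for Pdgfra (95% interval -0.15 to 0.16), -0.05 for Egfr (-0.44 to 0.33) and -0.16 for Erbb3 (-0.84 to 0.53). Igf1r was lower in all 3 CTK2+GAL libraries than in all 3 CTK-2 libraries, by a log2 difference of -0.14 (-0.29 to 0.0013, unadjusted p = 0.052 and adjusted p = 0.9999 in edgeR), and 11.5% of all tested genes showed such a lack of overlap in this comparison. The intervals of Pdgfra, Egfr and Igf1r lay within 0.59 of no change, while that of Erbb3 reached past it on the lower side.

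Galinex without cytokines gave a similar picture. In GAL versus CTL, 0 of 4 receptors and 0.00% of all tested genes were called by edgeR and 0 genes by DESeq2, and 4.30% of genes had an unadjusted p of at most 0.05. The groups overlapped for all 4 receptors, while 8.32% of all tested genes had no overlap. The log2 difference was -0.01 for Pdgfra (95% interval -0.16 to 0.15), -0.01 for Erbb3 (-0.42 to 0.39), -0.03 for Igf1r (-0.20 to 0.14) and -0.64 for Egfr (-1.56 to 0.28). Egfr had 26 counts in all of CTL and 14 in all of GAL, and its difference, which was not called, lay between -0.86 and -0.40 with 1 library left out.

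The cytokine response with galinex was also compared with that without it, as an interaction. It was called for 0 of 4 receptors and for 0.00% of all tested genes by edgeR and for 0 genes by DESeq2, with 2.82% of genes at an unadjusted p of at most 0.05. The difference of log2 fold changes was 0.01 for Pdgfra (95% interval -0.21 to 0.23) and -0.11 for Igf1r (-0.33 to 0.11). It was -0.14 for Erbb3 (-0.94 to 0.65) and 0.59 for Egfr (-0.41 to 1.59). For Egfr the difference was 0.35 without CTL replicate 3 and 0.81 without CTL replicate 1 or without GAL replicate 2, the lowest and highest values with 1 library left out. The intervals of all 4 receptors included 0, and that of Egfr reached well past 0.59, so a difference between its responses with and without galinex, 3.23 and 2.64, was neither shown nor bounded within the threshold.

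**Figure D4:**
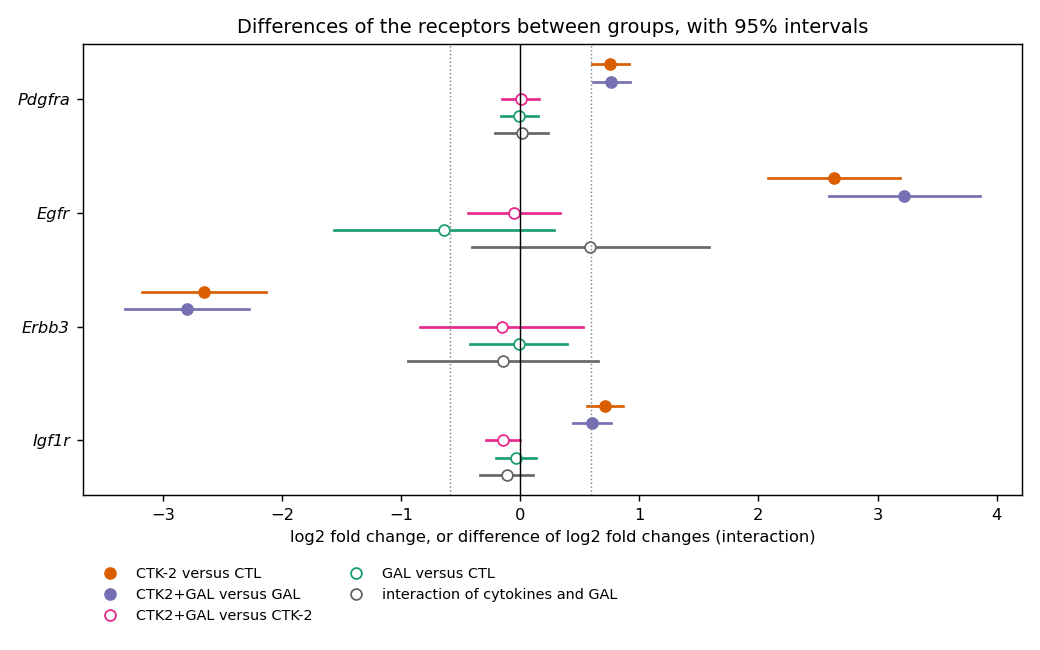
Log2 fold change of each receptor in the 4 comparisons and the difference of log2 fold changes for the interaction (x axis), with 95% intervals as lines; filled points were called and dotted lines mark a log2 fold change of 0.59 in either direction. The points of both cytokine comparisons are filled, and those of both galinex comparisons and of the interaction are open with intervals that include 0.

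Ligands of the 4 receptors were seen only where a change between CTK-2 and CTL had given them a symbol, which was 5 of 17 ligand genes. In CTK2+GAL versus GAL 3 of these rose and 2 fell, beside 17.4% of all tested genes and 85.5% of the genes with a symbol called. Their median log2 fold change was 1.11, against 0.006 over all tested genes and 0.740 over the genes with a symbol. Igf2, a ligand of the IGF-1 receptor, rose by a log2 fold change of 4.39 (SE 0.21, adjusted p = 1.56e-11, edgeR) from 3.65 ± 2.14 CPM in GAL to 79.5 ± 1.64 in CTK2+GAL (SD, n = 3). Nrg1, which encodes a neuregulin bound by ErbB3, rose by 2.92 (SE 0.25, adjusted p = 3.41e-08, edgeR) from 1.60 ± 1.09 to 14.3 ± 0.701 CPM.

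Tgfa, a ligand of EGFR, fell from 521 ± 32.6 CPM in GAL to 267 ± 11.4 in CTK2+GAL, a log2 fold change of -0.97 (SE 0.069, adjusted p = 2.96e-09, edgeR). The remaining ligands with a symbol, named after their values were seen, were Hbegf, another ligand of EGFR, which fell (log2 fold change -1.66, SE 0.25), and Pdgfc, a ligand of PDGFRα, which rose (1.11, SE 0.16). Receptor and ligand therefore went the same way for the PDGF and IGF pairs with a symbol and opposite ways for the EGFR and ErbB3 pairs. The log2 fold changes in CTK-2 versus CTL were 4.22 for Igf2, 3.29 for Nrg1, -0.94 for Tgfa, -1.58 for Hbegf and 1.11 for Pdgfc. Both ligands of EGFR with a symbol were lower where Egfr was higher, in either comparison.

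Of 9 partner and family receptors, Cspg4 and Nrp2 had a symbol and both rose in CTK2+GAL versus GAL, where 85.5% of the genes with a symbol were called. Cspg4 encodes the proteoglycan NG2, which marks OPCs together with PDGFRα, and rose by a log2 fold change of 2.04 (SE 0.095, adjusted p = 1.10e-11, edgeR) in CTK2+GAL versus GAL, from 125 ± 14.1 to 510 ± 23.4 CPM (SD, n = 3). Nrp2, which encodes a coreceptor for semaphorins and VEGF, rose by 0.98 (SE 0.18). Of 5 genes of ligand shedding, 2 had a symbol. Adam17, which encodes the protease that sheds TGFα, fell (log2 fold change -0.78, SE 0.10), and Rhbdf1, which encodes a rhomboid-like partner of that protease, rose (0.63, SE 0.11).

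Other receptor tyrosine kinases went in both directions. Of 43 listed, 14 had a symbol, and in CTK2+GAL versus GAL 7 rose, 5 fell and 2 were not called, with a median log2 fold change of 0.70. Over all genes with a symbol, 85.5% were called and the median was 0.740, and 17.4% of all tested genes were called. Alk, a receptor of the developing nervous system, rose by 3.58 (SE 0.28), Fgfrl1, an FGF receptor that lacks the kinase domain, rose by 0.91 (SE 0.080), and Ephb1, a receptor for ephrins, fell by 0.76 (SE 0.072). Ephb2 (0.56, SE 0.074) and Csf1r (0.61, SE 0.53, with overlapping libraries) were called in CTK-2 versus CTL only, and the interaction was not called for either (adjusted p = 1, edgeR). Kdr, a VEGF receptor gene named after its value was seen for its position on chromosome 14, 744820 bases from Pdgfra on mRatBN7.2, had log2 fold changes of 3.05 (SE 0.40) in CTK2+GAL versus GAL and 2.46 (SE 0.36) in CTK-2 versus CTL. It was low throughout, at 0.915 ± 0.61 CPM in GAL and 6.40 ± 1.17 in CTK2+GAL.

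Of 33 adaptors and genes of the PI3K and AKT branch, 10 had a symbol, and 8 rose and 2 fell in CTK2+GAL versus GAL (median log2 fold change 0.92). Beside them, 17.4% of all tested genes and 85.5% of the genes with a symbol were called, the latter with a median of 0.740. Irs1, which encodes the main docking protein of the insulin and IGF-1 receptors, fell by 1.38 (SE 0.072), while Irs2, its paralog, named after its value was seen, rose by 0.92 (SE 0.098). Src, a kinase that acts next to many of these receptors, rose by 1.32 (SE 0.092), and Pik3ip1, an inhibitor of PI3K, rose by 1.24 (SE 0.12).

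Of 26 targets and feedback inhibitors of ERK, 14 had a symbol, and 10 rose, 1 fell and 3 were not called in CTK2+GAL versus GAL (median log2 fold change 0.98). The shares called were 17.4% of all tested genes and 85.5% of the genes with a symbol, whose median was 0.740. Spry1, a feedback inhibitor of receptor tyrosine kinases, rose by 2.26 (SE 0.13), Etv1, a transcription factor downstream of ERK, rose by 1.13 (SE 0.067), and Dusp7, an ERK phosphatase, fell by 1.24 (SE 0.065). Spry3 (-0.56, SE 0.14), Spry4 (0.57, SE 0.13) and Etv5 (0.42, SE 0.11) were called in CTK-2 versus CTL only, and Spred2 (0.62, SE 0.099) in CTK2+GAL versus GAL only. None of the 14 was called in the interaction.

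Of 12 IGF binding proteins and their proteases, 5 had a symbol. Pappa1, a protease of IGF binding proteins, rose by a log2 fold change of 3.08 (SE 0.21) and Igfbp3, a carrier of IGFs in the extracellular space, by 0.86 (SE 0.15) in CTK2+GAL versus GAL, and Igfbpl1, a related secreted protein, fell by 1.10 (SE 0.22). Igfbp5 (-0.56, SE 0.14) and Igfbp4 (-0.44, SE 0.26), which encode further carriers, were called in CTK-2 versus CTL only. The median over the 5 was -0.44, against 0.740 over all genes with a symbol, of which 85.5% were called in CTK2+GAL versus GAL. As every one of these pathway genes has its symbol through a call in CTK-2 versus CTL, the counts describe the lists and are no evidence of a shared direction.

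**Figure D5:**
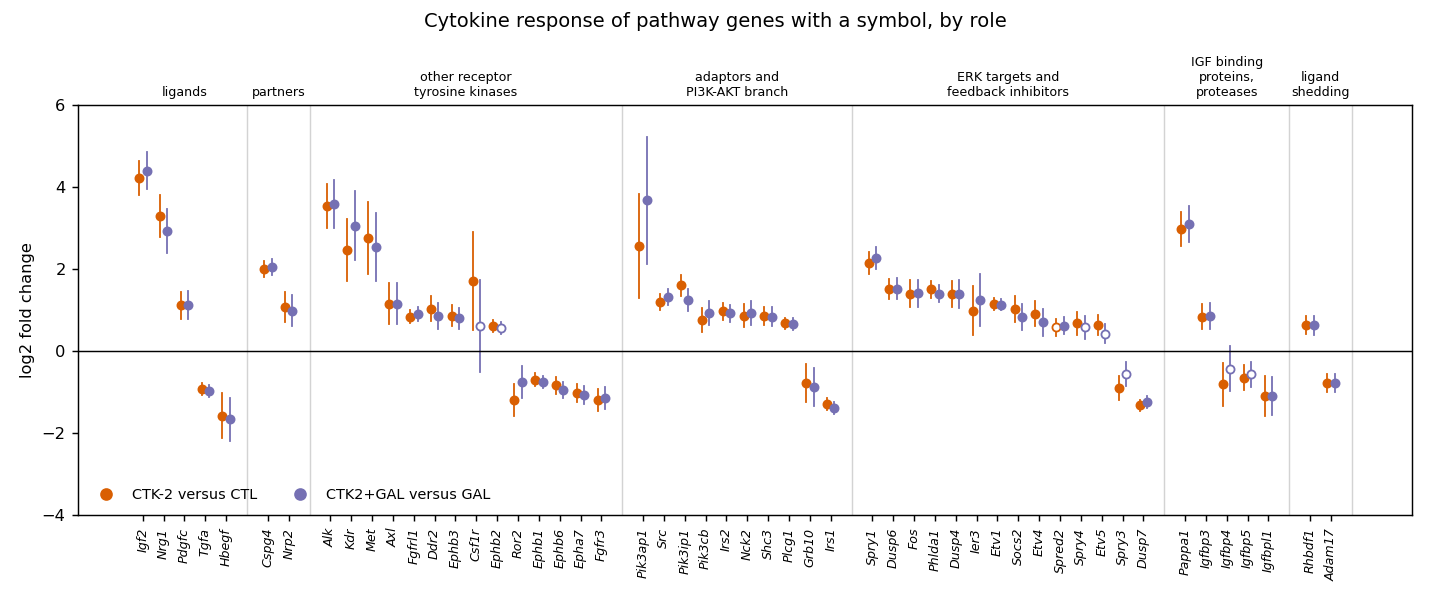
Log2 fold change with its 95% interval (y axis) of each pathway gene with a symbol (x axis), grouped by role, in both cytokine comparisons; filled points were called. Values with and without galinex lie side by side for most genes, and the open points mark 8 genes called in 1 of the 2 comparisons.

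Genes with a level pattern like that of each receptor were looked for among the 1770 other genes with a symbol, by Pearson's r of log2 CPM over 12 libraries. These libraries share the step between groups with and without cytokines, so r is a description. Pdgfra was most like Bsn, a presynaptic scaffold gene, Sall3, a transcription factor gene, and Hepacam, a glial adhesion gene (r = 0.991, 0.991 and 0.990), and most opposite to Zfp488, a transcription factor gene of oligodendrocytes (r = -0.993). Egfr was most like Trpm3, Pde7b and Akap12 (r = 0.989, 0.989 and 0.988) and most opposite to Jmy (r = -0.988). Igf1r was most like S1pr3, a sphingosine-1-phosphate receptor gene, Asap2 and Kif13a (r = 0.983, 0.982 and 0.981) and most opposite to Glrb (r = -0.981).

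Erbb3 was most like Tmeff1, Scd2, a fatty acid desaturase gene, and Tp53inp2 (r = 0.996 each) and most opposite to Ifi44l, an interferon-induced gene (r = -0.999). Ifi44l had 0, 0 and 8 counts in CTL, 0, 1 and 4 in GAL, 133, 177 and 177 in CTK-2 and 179, 209 and 293 in CTK2+GAL. The counts in replicate 3 were the highest of CTL and of GAL, where Erbb3 was lowest. After the group means were taken out, r between Erbb3 and Ifi44l was -0.98. For Tmeff1, Scd2 and Tp53inp2 it was 0.92, 0.93 and 0.91. The part of the replicate 3 libraries in these values was not tested.

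Markers of other cell types could be counted only where they had a symbol, which a change between CTK-2 and CTL gave. Their differences with cytokines are therefore a description, and markers without a symbol were not seen. The 8 microglial markers with a symbol summed to 2.58 to 16.4 CPM in CTL, 4.27 to 15.3 in GAL, 38.0 to 50.4 in CTK-2 and 37.7 to 42.2 in CTK2+GAL. Among them Cd14 was at 0 in every GAL library and in 1 of CTL, Spi1 in 2 libraries of each, and Ptprc in 1 of CTL and 2 of GAL. Spi1 and Ptprc were named after their values were seen. The 4 of 10 astrocyte markers with a symbol summed to 330 to 409 CPM in CTL, 333 to 392 in GAL, 298 to 309 in CTK-2 and 298 to 316 in CTK2+GAL. Aldoc, the most abundant of them, fell from 256.5 ± 16.2 CPM in GAL to 159.5 ± 7.79 in CTK2+GAL (SD, n = 3, log2 fold change -0.68). Clu and Sox9 rose in that comparison (3.27 and 1.81), and Fgfr3, named after its value was seen, fell (-1.14), so the astrocyte markers did not move one way. The 2 of 7 markers of fibroblasts and pericytes, Mgp and Col1a2, summed to 0.86 to 2.43 CPM in CTL, 1.67 to 2.92 in GAL, 16.5 to 20.6 in CTK-2 and 16.1 to 22.4 in CTK2+GAL, and the 2 of 6 neuronal markers, Tubb3 and Elavl4, to 96.0 to 104 CPM in CTL, 91.3 to 113 in GAL, 191 to 221 in CTK-2 and 208 to 214 in CTK2+GAL. The paper stained an OPC preparation used in its experiments and reports few cells positive for the astrocyte protein GFAP. It detected none positive for the microglial protein Iba1, and does not say that this preparation was sequenced. The part of other cells in the receptor results was not tested.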

How the data were processed

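RNA sequencing counts of 12 libraries were used, grouped by their titles. The authors deposited raw whole-number counts of read pairs per gene. Per the labels, FastQC and STAR were used before counting, and per the file headers featureCounts 2.0.0 counted reversely stranded pairs on Ensembl exons of mRatBN7.2, without pairs that had several positions or several genes. Other versions are not given in the sources used here.

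Genes whose counts averaged at least 5 (13348) were normalized by TMM and fitted with edgeR 4.0.16 in R 4.3.3 (quasi-likelihood, 1 mean for each of 4 groups), with Benjamini-Hochberg adjustment over all of them. Standard errors were derived from the fold change and the F statistic. DESeq2 1.42.0 was an alternative. The model was tested on simulated data.

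Of 1786 symbols in the study's list of called genes, 1771 were joined to 1 Ensembl identifier by mean count and fold change, and 99.9% of 1755 pairs lay on the same chromosome in RefSeq. The values of that list are not reported. The receptors and lists were chosen with earlier results of these data known. The genes named are the receptors, up to 3 of each list with the smallest p in CTK2+GAL versus GAL, those called in 1 cytokine comparison only, and 3 most alike and 1 most opposite for each receptor. Those outside the rule are marked.

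Same-numbered CTL and GAL libraries deviated together from their group means (r = 0.258, 0.260 and 0.596), so they were taken as pairs in a fit added after seeing the data. Values close to the lower of these were also found for CTL 1 with GAL 2 (0.233) and CTL 2 with GAL 1 (0.149), so the numbers stood out mainly for replicate 3. Means of levels per length and shares over CTL and GAL replicates 1 and 2 alone were added after seeing the data. Other groups did not (r = -0.003 to 0.071).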

Additional observations from a re-analysis of the deposited data

How the results depend on the processing

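The calls of Pdgfra, Egfr and Erbb3 in both cytokine comparisons held in each of 23 other settings, and that of Igf1r held in all 23 in CTK-2 versus CTL. In CTK2+GAL versus GAL the log2 fold change of Igf1r missed 0.59 in 5 settings: 0.58 after removal of the 15% least variable genes by interquartile range, 0.56 without the third libraries of CTL and GAL, and 3 of the fits that leave out 1 library, over which it lay between 0.56 and 0.69. The replicate block over all groups gave 0.60 for Igf1r and 3.25 for Egfr in that comparison, and pairs of CTL and GAL gave 0.65 and 4.01, with 3.30 for Egfr in CTK-2 versus CTL. Blocks and pairing changed no call. Over all genes, the galinex counts were not 0 in every setting. Without the third libraries of CTL and GAL, 4 of 13315 genes were called in GAL versus CTL and 6 in the interaction. With no filter on low counts, 2 and 4 of 20963 genes were called. None of the receptors was among them.

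Values near 0 that were never called changed sign. In CTK2+GAL versus CTK-2, Pdgfra was at -0.00 with only the 2 groups fitted and between -0.05 and 0.05 with 1 library left out, and Egfr between -0.18 and 0.06. In GAL versus CTL, Erbb3 was at 0.01 by DESeq2, 0.01 with the replicate block, 0.02 with pairs and between -0.28 and 0.21 with 1 library left out, Pdgfra between -0.08 and 0.05 and Igf1r between -0.13 and 0.01. Without the third libraries of CTL and GAL, Pdgfra was at 0.04 and Igf1r at 0.03 there, and the interaction of Pdgfra at -0.04. With 1 library left out, the interaction lay between -0.05 and 0.09 for Pdgfra and between -0.37 and 0.12 for Erbb3. For Egfr it lay between 0.35 and 0.81. The unadjusted p of Igf1r in CTK2+GAL versus CTK-2 was at most 0.05 in 11 of 23 other settings, with a range of 0.027 to 0.218, and its adjusted p was never below 0.684. The causes were not tested. The join by mean count alone gave the same 4 identifiers, and no mean level moved by more than 1 SD with total counts or DESeq2 size factors. A reference table of Ensembl symbols was not used here. Depth limits Egfr most, with 1 to 12 counts in each library without cytokines.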

Other observations

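The 7 OPC markers with a symbol did not move as 1 group with cytokines. In CTK2+GAL versus GAL, Pdgfra, Cspg4, Ptprz1 (log2 fold change 0.63, SE 0.047), a receptor-type phosphatase gene, and Nkx2-2 (0.79, SE 0.063), a transcription factor gene, rose. Ptprz1 and Nkx2-2 were named after their values were seen. Matn4 (-2.49, SE 0.15) and Vcan (-0.90, SE 0.064), both genes of matrix proteins, fell. Of 13 markers of maturing oligodendrocytes, 7 had a symbol. All 7 fell in CTK2+GAL versus GAL, with log2 fold changes between -1.59 and -0.91. In that comparison 5.74% of all tested genes were called lower, and 85.5% of the genes with a symbol were called. As these markers have their symbols through a call in CTK-2 versus CTL, their fall is a description.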
